A study of Mus musculus with 4 samples.

Results

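Cytosolic ribosomal proteins are the protein components of the ribosomes that translate nuclear mRNAs. Their genes were taken by symbol: Rpl or Rps followed by digits with an optional trailing letter or l, plus Rplp0, Rplp1, Rplp2 and Rpsa, without the Rps6k kinases and without pseudogene symbols. The rule found 82 of the 24847 gene symbols in the count files, 47 of the large subunit, 32 of the small subunit and 3 of the stalk. Of these 82 genes, 57 held a read count in any library and 25 were at 0 in all 4 libraries. At least 10 counts in a library were reached by 25 genes, and 32 held a count but stayed under 10 everywhere.

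The libraries were poly(A) RNA of mouse hearts, with 1 library per group. Each library pooled 3 hearts of mice aged 12 weeks. Both pairs concern cardiac myosin binding protein C, encoded by Mybpc3, a thick-filament protein of the sarcomere. In the first pair, NTG hearts (nontransgenic, C57BL/6) were set beside dC10mut hearts (cMyBP-CΔC10mut, the 25bp variant MYBPC3 transgene, C57BL/6). In the second, control hearts (FvB/N) were set beside tt hearts (cMyBP-C(t/t) mice, FvB/N). The labels give neither the promoter of the transgene nor the number of transgenic lines, and they give no sex. Because each group is 1 pooled library, ratios within a pair cannot be checked against replicates, and intervals cover counting error only.

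The small subunit of the ribosome reads the mRNA, the large subunit joins the amino acids, and the stalk of the large subunit recruits the elongation factors. Each ribosome carries mostly 1 copy of each protein, and the genes are among the strongly expressed genes of most cells. Many of their mRNAs begin with a run of pyrimidines, the terminal oligopyrimidine (TOP) start, through which mTORC1 and LARP1 adjust their translation. Heart muscle raises its ribosome content when it grows, and Rpl3l, a muscle form of Rpl3, replaces that protein in part of the ribosomes of heart and skeletal muscle.

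The libraries held 170543 (NTG), 187365 (dC10mut), 176633 (control) and 186420 (tt) counts, so that 1 count was worth 5.19 to 6.23 CPM, the unit of counts brought to 1 common total. A count of 0 allows up to 3 counts, which is between 15.6 and 18.7 CPM. Counts on the Xist locus (Xist and Tsix together) were 0 for NTG, 155 for dC10mut, 0 for control and 173 for tt. Of these, Xist held 8 in dC10mut and 14 in tt, and Tsix held 147 and 159. Sex and genotype therefore cannot be told apart in either pair. Of 10 cardiomyocyte markers 8 held counts, with sums of 26404, 32872, 26043 and 23699 CPM in the same order of libraries. Myl2, Actc1 and Tnni3 led these sums. Of the same 8, Myh6 held 0, 0, 0 and 1 counts, Mb 1, 0, 1 and 1, and Pln 2, 2, 0 and 2. Tnnt2 and Myl3, which define cardiomyocytes, were at 0 in all 4 libraries, as were all 6 erythroid markers. Transcripts with an exon facing an exon of another gene on the opposite strand were 22.6% of those placed on the annotation, yet they held between 65.6% and 69.1% of the counts, and 8 of the 10 most counted genes had such an exon. The kit marks the strand of the RNA, and no source used here gives the strand setting of the counting. In NTG, A930016O22Rik held 7272 counts, while Ckm, which it faces, held 342. Whether a count is of the gene's own strand was not tested, so counts may not give mRNA levels.

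The shared sequence feature that the symbol rule did not use is the start of the transcript. RefSeq gave a promoter for 61 of the 82 genes (assembly GRCm38.p6). The windows below run from 15 bases before to 15 bases from the start of the transcript, 5′ to 3′ on the gene's own strand, with pyrimidine runs of at least 6 bases in capitals. The first 4 hold a TOP start and are examples picked after their sequences were seen. Rpl15, Rpl38 and Rplp2 encode proteins of the large subunit and its stalk and were at 0 in all libraries, and Rpl35 is another large-subunit gene.
Rpl15 (chr14:18270972-18271001, minus strand): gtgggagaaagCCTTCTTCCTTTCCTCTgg
Rpl38 (chr11:114668565-114668594, plus strand): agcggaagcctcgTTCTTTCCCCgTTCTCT
Rplp2 (chr7:141447636-141447665, plus strand): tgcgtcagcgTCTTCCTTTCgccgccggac
Rpl35 (chr2:39005117-39005146, minus strand): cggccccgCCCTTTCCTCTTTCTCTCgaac
The next 6 belong to genes on which the results below turn. Rps9, Rps2, Rps15a and Rpl4 have a pyrimidine run but no TOP word within 10 bases of the start, and Rplp0 and Rpl37a have no such run in the window. The starts used are those of RefSeq and can differ from the gene positions given below, which are from GENCODE. The Rpl37a window ends before the GENCODE start of that gene (72711290), so it does not describe that start.
Rps9 (chr7:3704026-3704055, plus strand): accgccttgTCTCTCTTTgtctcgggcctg
Rps2 (chr17:24720048-24720077, plus strand): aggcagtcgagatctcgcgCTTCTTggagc
Rps15a (chr7:118116133-118116162, minus strand): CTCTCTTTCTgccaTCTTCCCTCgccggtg
Rpl4 (chr9:64173372-64173401, plus strand): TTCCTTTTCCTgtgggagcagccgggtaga
Rplp0 (chr5:115559452-115559481, plus strand): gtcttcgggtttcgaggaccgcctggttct
Rpl37a (chr1:72711245-72711274, plus strand): ttccgctcgccggtctaaaaccgcgcatgc

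A TOP start was searched as 5 words on the transcribed strand within 10 bases of the start. Shares are of genes, and a gene with several promoters counted if any of them held the word. CTTTCC was found in 14.8% of the 61 ribosomal protein genes, against 0.995% of the 27025 genes with a promoter. CTTCCT was found in 11.5% against 1.55%, CTTTTC in 4.92% against 0.755%, CTTTCT in 3.28% against 1.05%, and CTTTTT in 1.64% against 0.648%. At least 1 of these words was found in 27.9% against 4.79%. A pyrimidine run of at least 6 bases, a definition made after the windows were seen, was found at the start in 62.3% and 34.6%. Over the whole window of 300 bases and on both strands, CCGGAAG, the core of the ETS and GABPA motif, was found in 41% of the ribosomal protein genes against 9.93% of all. AAGATGGC, a YY1 word, was found in 8.2% against 3.19%, and GGGCGG, an SP1 word, in 59% against 38.2%. TATAAA was found in 11.5% of the ribosomal protein genes and in 15.7% of all. These are matches of letters, not sites of binding, and the TOP words overlap one another and the pyrimidine run.

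How strongly a ribosomal protein gene was counted went with the number of RefSeq transcripts listed for it. The 61 genes with 1 transcript held 98.4% of all ribosomal protein counts, and 53 of them had a count. Of the 21 genes with more than 1 transcript, 17 were at 0 in all libraries, and the 21 together held 1.55% of the counts. In the whole files, genes listed with several transcripts took up 58.6% of the transcripts but 14.3% of the counts. Among the genes at 0, Rps19 is listed with 9 transcripts and Rps21 and Rps24 with 6 each. How reads shared between transcripts of a gene were counted is not given in the sources, and its part in these zeros was not tested.

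**Figure D1:**
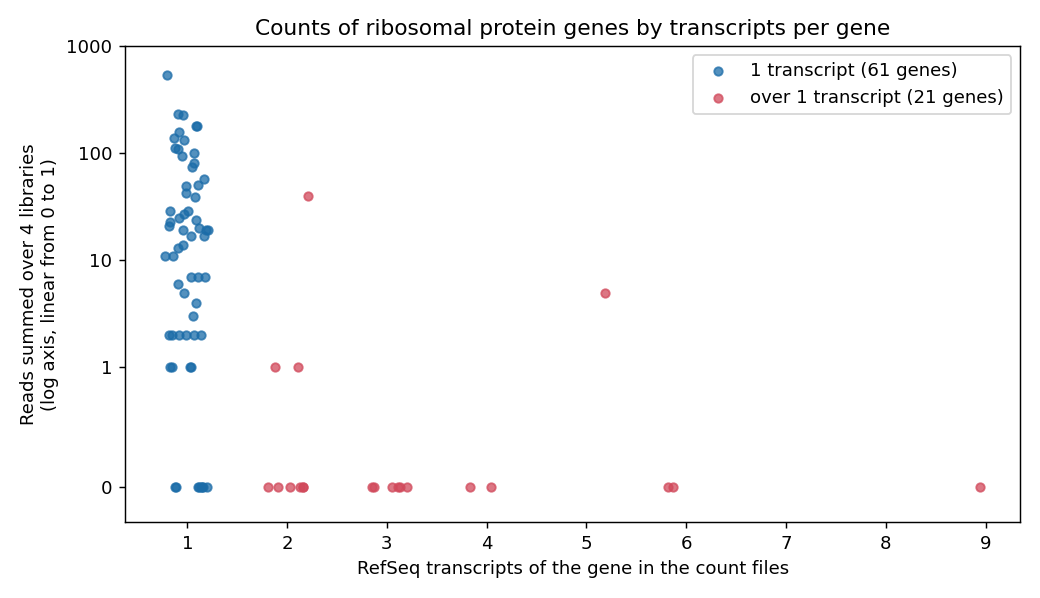
Reads summed over the 4 libraries (vertical axis, log scale, linear from 0 to 1) for each of the 82 ribosomal protein genes by the number of RefSeq transcripts listed for it (horizontal axis, points spread sideways for visibility). Of the 61 genes with 1 transcript 53 have a count, while 17 of the 21 with more than 1 lie at 0.

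Ribosomal proteins also have many processed pseudogenes, whose reads can be split from or added to those of the gene. Among the 1-transcript genes, the 28 with at least 50% of their 50-base words found in no other annotated gene had a median of 26 counts over the 4 libraries, against 12 counts in the 32 genes under that share. The median was 23 counts for the 17 genes with no pseudogene of their name in the annotation, 19 counts for the 29 with 1 to 4, and 11 counts for the 15 with 5 or more. Across 60 of these genes Spearman's rho with the summed count was 0.26 for the unique share, -0.30 for the number of pseudogenes and 0.24 for transcript length, as a description of genes that share their libraries. Genes with a small unique share, such as Rpl5 (6.16%), Rpl36 (18.9%) and Rps2 (21%), are uncertain for this reason.

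Scaled to transcript length, the most counted genes of the set were Rpl32 and Rpl4. Their mean levels over the 4 libraries were 624 and 484 CPM per kilobase, and Rps9 at 253 and Rps25 at 248 were also among the highest. Rpl4, whose protein reaches into the exit tunnel of the large subunit, held 122 (NTG), 151 (dC10mut), 141 (control) and 122 (tt) counts. Its tt level (633 CPM) was the lowest and its dC10mut level (806 CPM) the highest, and neither ratio interval excluded equality. Rpl32, also of the large subunit, held 48, 61, 57 and 68 counts in the same order and faces Cand2 on the other strand. The 4 libraries lay close together in both genes. The 10 most counted ribosomal protein genes held 66.2% of the counts of the set, and 15 of the 82 genes, with 25.9% of its counts, have an exon facing another gene.

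**Figure D2:**
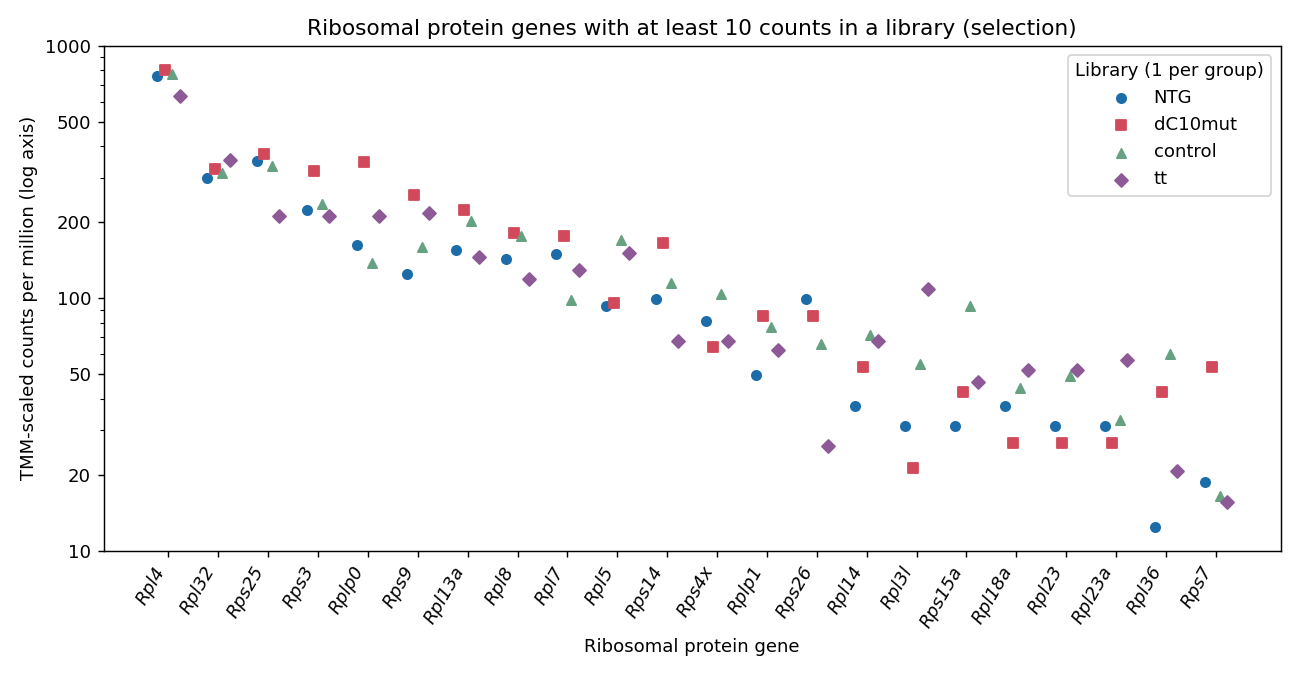
TMM-scaled CPM (log axis) of 22 of the 25 ribosomal protein genes with at least 10 counts in a library, ordered by total count, with 1 point per library. Rplp0 and Rps9 stand highest in dC10mut and second in tt, Rps25 and Rps26 are lowest in tt, and Rpl3l is highest in tt.

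The first comparison asks how ribosomal protein genes differed between hearts with the variant transgene and nontransgenic hearts. The 82 genes summed to 618 counts for NTG and 915 for dC10mut. That is 0.362% of the NTG library (exact 95% interval 0.334 to 0.392) and 0.488% of the dC10mut library (0.457 to 0.521). On the scaled counts the sum was 1.27-fold higher in dC10mut (log2 ratio 0.34, 95% counting interval 0.19 to 0.49). The small subunit sum had a log2 ratio of 0.36 (0.13 to 0.59). The large subunit sum, taken without the 3 stalk genes, had one of 0.23 (0.02 to 0.44). The stalk genes together held 34 counts in NTG and 81 in dC10mut. In bulk hearts, fewer cells of a type and less RNA per cell cannot be told apart.

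A gene was called higher or lower if it differed at least 2-fold, its 95% counting interval excluded equality and it reached 1 CPM in a library of the pair. By this rule 3 ribosomal protein genes were higher in dC10mut and 0 were lower, of 50 with a count in the pair. Over all genes 1.81% were higher and 2.53% were lower, 4.33% in either direction. Among genes with at least 10 counts the rule took 13.1% in either direction, and 2 of 19 ribosomal protein genes.

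Rplp0 (chromosome 5, 115559467 to 115563727, GRCm38) encodes the protein that anchors the stalk and carries its P1 and P2 dimers. Its counts were 26 (NTG), 65 (dC10mut), 25 (control) and 41 (tt). The dC10mut library stood above the other 3, and the log2 ratio to NTG was 1.08 (0.42 to 1.81). Rps9 (chromosome 7, 3703993 to 3706897), a small-subunit protein at the mRNA entry, held 20, 48, 29 and 42 counts, with a log2 ratio of 1.02 (0.26 to 1.87). Here both mutant libraries stood above both control libraries. Rpl37a, a large-subunit protein (chromosome 1, 72711290 to 72713813), held 1, 9, 5 and 2 counts and a log2 ratio of 2.48 (0.10 to 8.40), which rests on few reads.

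The calls of Rplp0 and Rps9 lie close to the 2-fold line, and that of Rpl37a has an interval that starts close to equality. When transcripts with an opposite-strand exon were left out of all libraries before scaling, the log2 ratios became 0.99 for Rplp0 and 0.93 for Rps9, the interval of Rpl37a reached -0.00, and 0 genes remained past the rule. None of the 3 genes has an opposite-strand exon itself.

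Other well counted genes were nearer to equality. Rps3, a small-subunit protein at the mRNA entry, held 36 and 60 counts in NTG and dC10mut (log2 ratio 0.51, -0.11 to 1.15). Rps14, a small-subunit protein whose loss of 1 copy underlies an anaemia in humans, held 16 and 31 counts (0.71, -0.18 to 1.70). Rpl13a, a large-subunit protein that also takes part in silencing inflammatory mRNAs, held 25 and 42 counts (0.52, -0.22 to 1.30). Rpl8 and Rpl7 had log2 ratios of 0.33 and 0.23, with intervals that included equality. Rpl4, Rpl5, Rpl32 and Rps25 lay between 0.04 and 0.12.

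The better counted genes mostly had 1 direction. Of the 19 ribosomal protein genes with at least 10 counts in NTG or dC10mut, 17 had a positive log2 ratio, against 50.3% of all genes at that level. Their median was 0.35, against 0.01 over all genes. The 2 with a negative ratio were Rps4x (13 and 12 counts, log2 ratio -0.33) and Rps26 (16 and 16 counts, log2 ratio -0.22), named after their values were seen. The 31 genes with a count under 10 in both libraries split into 15 positive and 16 negative ratios.

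Genes of the same transcript length showed a similar shift. The ribosomal protein genes with at least 10 counts had a median length of 975 bases, against 2623 bases for other genes at that level. Other genes between 534 and 1760 bases long without an opposite-strand exon had a median log2 ratio of 0.41 (286 genes, 74.1% positive), beside 0.51 for the 15 ribosomal protein genes without such an exon. Without regard to opposite-strand exons, other genes of that length had a median of 0.15. Across 1037 other genes without an opposite-strand exon, Spearman's rho between length and log2 ratio was -0.19. The part of transcript length in the shift of the ribosomal protein genes was not tested beyond these values.

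The second comparison asks the same of tt hearts against their controls. The 82 genes held 779 counts in control and 720 in tt, or 0.441% (0.411 to 0.473) and 0.386% (0.359 to 0.415) of the libraries. The scaled sum was 1.15-fold lower in tt (log2 ratio -0.20, -0.34 to -0.05). The small subunit sum had a log2 ratio of -0.30 (-0.54 to -0.06). The large subunit sum, again without the stalk genes, had one of -0.18 (-0.38 to 0.02). The stalk genes together held 39 counts in control and 53 in tt. Of the stalk genes, Rplp0 held 25 counts in control and 41 in tt, and Rplp1 held 14 and 12.

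By the 2-fold rule 0 ribosomal protein genes were higher and 1 was lower in tt, of 53 with a count in the pair. Over all genes 2.7% were higher and 1.58% were lower, 4.28% in either direction. Among genes with at least 10 counts the rule took 12.8%, and 0 of 24 ribosomal protein genes. The 1 gene was Rps2 (chromosome 17, 24718116 to 24721929), a small-subunit protein at the mRNA entry, with 6 (NTG), 5 (dC10mut), 6 (control) and 0 (tt) counts. Against the 3 counts that a count of 0 allows in tt, that is 2.12-fold lower if the 6 control counts are taken as exact. The counting interval, which covers error in control and in tt, had an upper limit of log2 -0.32. A difference smaller than 2-fold is therefore not excluded. The window of Rps2 above holds a pyrimidine run just after the start. With 21% of its 50-base words its own and 11 pseudogenes of its name, its count is uncertain.

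Rps25, a small-subunit protein needed by several viral and cellular internal entry sites, held 56, 70, 61 and 41 counts. The tt library was the lowest of the 4, at 213 CPM, with a log2 ratio to control of -0.65 (-1.26 to -0.06). Rps25 faces Ccdc84 and Trappc4, which makes its counts uncertain. Rps14 held 21 counts in control and 13 in tt (-0.75, -1.89 to 0.29), and Rpl8 and Rpl13a had log2 ratios of -0.55 and -0.48 with intervals that included equality. Rplp0 and Rps9 had positive ratios of 0.62 (-0.12 to 1.41) and 0.45 (-0.26 to 1.19).

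Of the 24 ribosomal protein genes with at least 10 counts in control or tt, 15 had a negative log2 ratio and 9 a positive one, while 49.8% of all genes at that level were positive. Their median was -0.16, against -0.00 over all genes. Other genes of similar length without an opposite-strand exon had a median of -0.24 (271 genes, 34.3% positive), beside -0.29 in the 19 ribosomal protein genes without such an exon. Spearman's rho between length and log2 ratio was 0.28 across 1128 other genes of that kind. The 32 genes under 10 counts everywhere held 57 (NTG), 90 (dC10mut), 75 (control) and 49 (tt) counts (tt against control -0.69, -1.25 to -0.16), a split chosen after the values were seen.

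**Figure D3:**
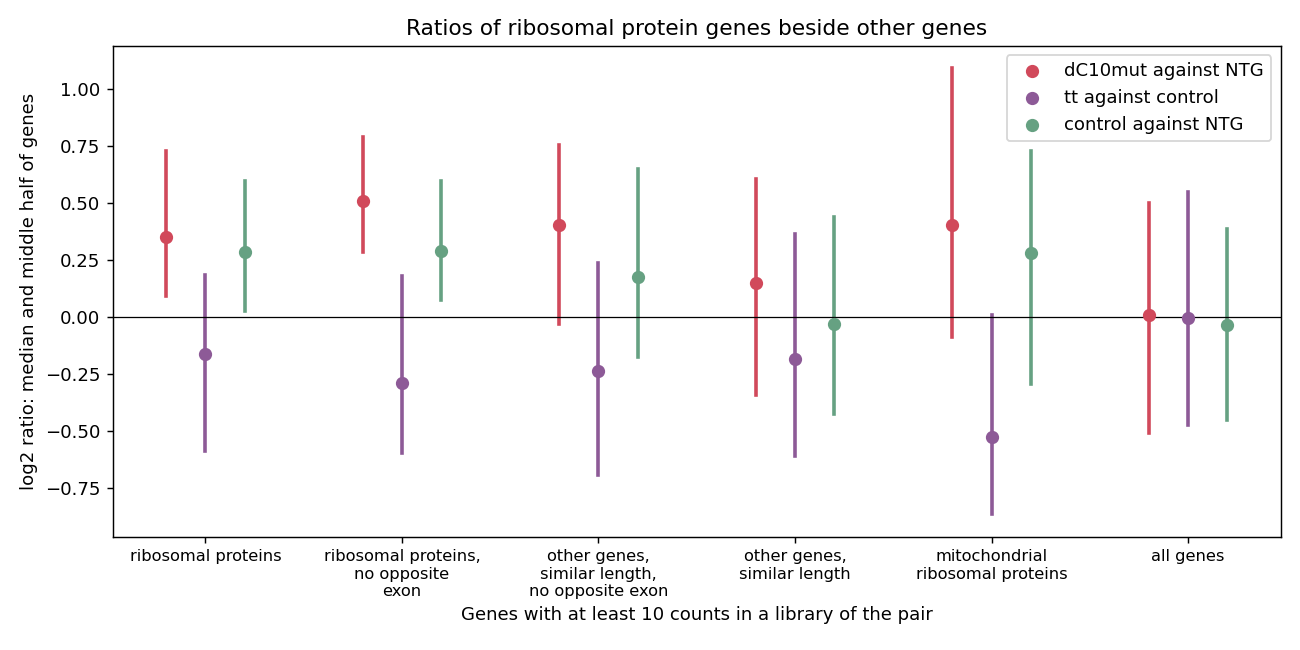
Median log2 ratio (points) with the lower to upper quartile of genes (bars) for genes with at least 10 counts in a library of the pair, for the 3 comparisons. The median of ribosomal protein genes is 0.35 for dC10mut against NTG, -0.16 for tt against control, where the bar crosses 0, and 0.29 for control against NTG. Other genes of similar length without an opposite-strand exon have medians of 0.41, -0.24 and 0.18. Ribosomal protein genes without such an exon have medians of 0.51, -0.29 and 0.29, and all genes centre near 0.

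The control libraries of the pairs, which differ in strain label, gave a yardstick. The set held 779 counts in control and 618 in NTG, a log2 ratio of 0.15 (-0.00 to 0.31). This value moved with the scaling. It was 0.28 (0.13 to 0.44) on library totals, which move the median of all genes in this comparison by 0.13, and 0.17 (0.01 to 0.32) on DESeq2 size factors. It was 0.09 (-0.09 to 0.27) without transcripts that have an opposite-strand exon. By the 2-fold rule 2 ribosomal protein genes were higher in control and 0 were lower, beside 1.4% and 1.69% of all genes, 3.09% in either direction. Among genes with at least 10 counts the rule took 8.41%, and 2 of 21 ribosomal protein genes. Rpl36, a large-subunit protein, held 2 (NTG), 8 (dC10mut), 11 (control) and 4 (tt) counts (control against NTG 2.04, 0.08 to 5.49). Rps15a, of the small subunit, held 5, 8, 17 and 9 (2.83-fold higher in control, log2 interval 0.09 to 3.38). The median over the 21 genes with at least 10 counts was 0.29, with 16 positive, against -0.03 and 47.6% positive over all genes. This ratio and that of dC10mut share the NTG library, so the values are given side by side and not compared. NTG had the smallest share of its raw counts in ribosomal proteins, 0.362%, and tt the smallest scaled sum, 3739 CPM against 3853 in NTG.

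**Figure D4:**
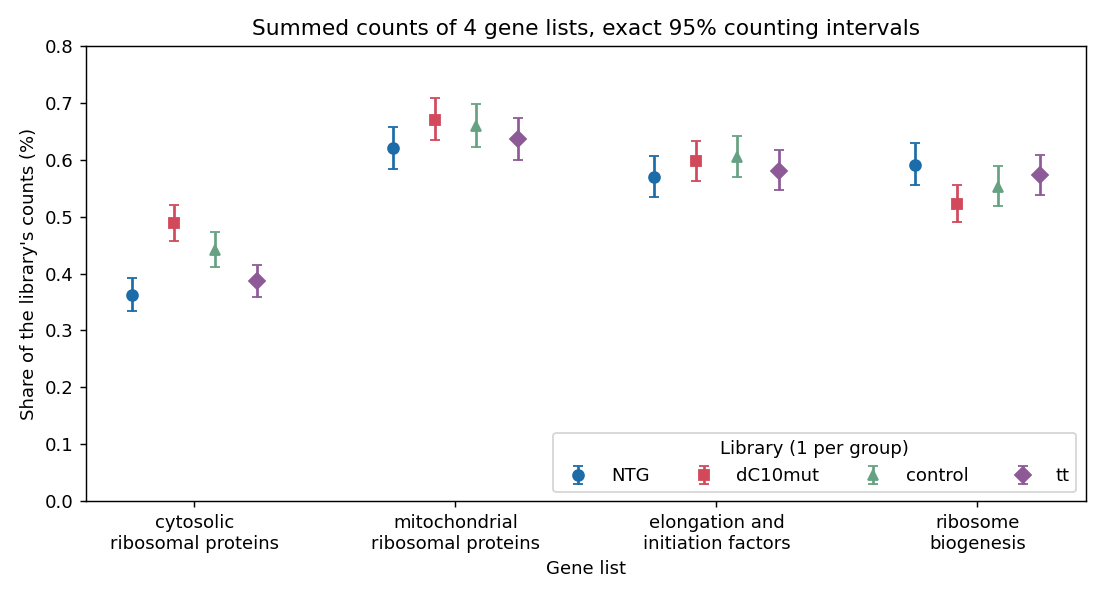
Share of the library's counts (%, axis from 0) held by cytosolic ribosomal proteins and by 3 other gene lists, 1 point per library with exact 95% counting intervals. Cytosolic ribosomal proteins run from 0.362% in NTG to 0.488% in dC10mut, while the intervals of mitochondrial ribosomal proteins overlap in all 4 libraries.

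Both pairs could be set beside each other for 18 ribosomal protein genes with at least 10 counts in a library of each pair; they share no library. The dC10mut pair ratio was above the tt pair ratio in 16 of these 18 genes, against 48% of the 1891 genes at that level. The median difference of the log2 ratios was 0.62, against -0.04. The same signs were seen outside the set. Other genes of similar length without an opposite-strand exon had medians of 0.41 in the dC10mut pair and -0.24 in the tt pair. Mitochondrial ribosomal proteins had medians of 0.41 and -0.53. In 11 genes the ratio was positive in the dC10mut pair and negative in the tt pair, and in 0 genes the reverse. Positive in both pairs were 5 genes, among them Rplp0, Rps9, Rpl32 and Rpl7, and negative in both were 2 (Rps26 and Rps4x). The dC10mut library was the highest of the 4 in 13 of the 18 genes, against 25.6% of all genes at that level, and tt was the lowest in 9, against 25.5%. NTG was the lowest in 6 of the 18, against 22.7% of all genes at that level.

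For single genes the difference between the pairs was mostly within counting error. Its 95% interval excluded 0 in 1 of the 18 genes, Rps14, at 1.47 (0.16 to 2.77), against 24.5% of all genes at that level. Rps14 held 16 (NTG), 31 (dC10mut), 21 (control) and 13 (tt) counts, highest in one mutant library and lowest in the other. An interaction between model and genotype has no residual degrees of freedom with 4 libraries and was not tested.

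**Figure D5:**
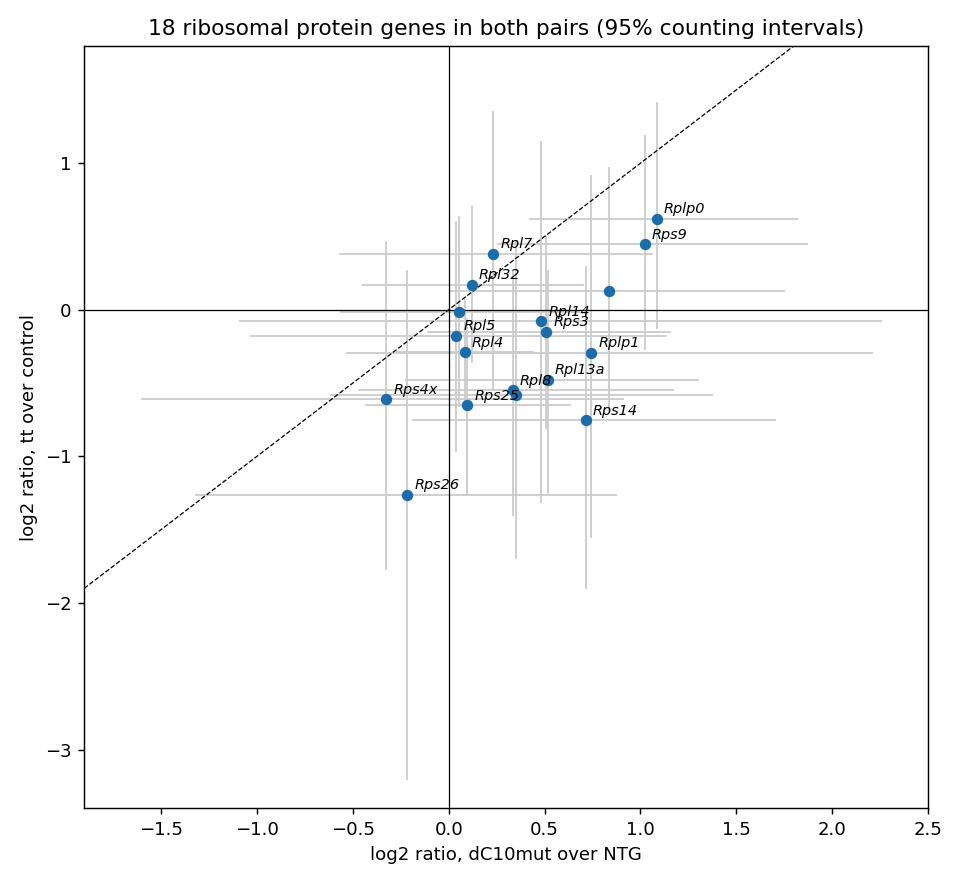
Log2 ratio of tt against control (vertical) and of dC10mut against NTG (horizontal) for the 18 ribosomal protein genes with at least 10 counts in a library of each pair, with names for 15 of them, 95% counting intervals as grey lines and the dashed line marking equal ratios. Of the 18 points 16 lie below the dashed line, and Rplp0 and Rps9 lie furthest to the right.

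A difference common to both mutant libraries was tested by edgeR's quasi-likelihood method, blocked on the pair, which leaves 1 residual degree of freedom. Of 7360 genes tested, 13 (0.177%) passed an adjusted p of 0.05, 8 higher and 5 lower. Among the 13 were the sex-linked genes Xist, Tsix and Ddx3y. Rps18-ps4 also passed, with 641 counts in control and 665 in tt, so a pass does not require a difference in each pair. Of the 48 ribosomal protein genes tested, 0 passed, and 1 had an unadjusted p under 0.05 in edgeR. That gene was Rplp0 (adjusted p = 0.998 in edgeR), with positive ratios in both pairs. DESeq2 with the same block called 0 ribosomal protein genes and gave 0 with an unadjusted p under 0.05.

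Among paralogs, the muscle form Rpl3l (chromosome 17, 24727820 to 24736143) stood apart from Rpl3. Rpl3l held 5 (NTG), 4 (dC10mut), 10 (control) and 21 (tt) counts, the highest count being in tt (log2 ratio to control 0.95, -0.16 to 2.24). All of its 50-base words are its own. Rpl3, the general form near the peptidyl transferase centre, held 1 count in each library, with 14.4% of its 50-base words its own, so the ratio of the forms cannot be taken from these counts. Rpl3l has 2 transcripts and was the most counted of the genes with more than 1.

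The stalk genes differed in depth. Rplp1 held 8, 16, 14 and 12 counts (dC10mut against NTG 0.74, -0.53 to 2.21), and Rplp2, its partner in the P1 and P2 dimers, was at 0 everywhere with 3 transcripts listed. Rpsa, the laminin receptor protein of the small subunit, held 2, 5, 2 and 2 counts. The paralogs Rpl10l, Rpl39l and Rps27l were at 0 in all 4 libraries, and Rps4l held 3, 1, 1 and 1. Names just outside the rule gave similar levels: Rpl7l1 held 11, 7, 8 and 11 counts, Rpl36al 6, 5, 3 and 8, Rps3a1 16, 12, 14 and 16, and Rpl22l1 0. Of the ribosomal components named otherwise, Rack1, a scaffold on the small subunit that faces Trim41, held 26, 38, 41 and 46 counts, and Fau was at 0. None of these named outside the rule was past the 2-fold rule in the 3 comparisons.

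A pseudogene symbol separated the libraries more than any gene of the set. Rps18-ps4 held 1 (NTG), 814 (dC10mut), 641 (control) and 665 (tt) counts. The dC10mut library thus lay with the FvB/N libraries and apart from NTG, with which it shares the C57BL/6 label. RefSeq lists the locus as a long noncoding RNA (chromosome 13, 97751112 to 97760963), and one of its exons faces Gm10260, the pseudogene Rps18-ps6 (97760087 to 97760609). Of the 511 50-base words of Rps18, 290 (56.8%) are found exactly in Gm10260. Rps18 itself held 7, 6, 4 and 3 counts. Rpl14-ps1, the other pseudogene with at least 20 counts, held 40, 50, 40 and 45, beside 6, 10, 13 and 13 for Rpl14. The origin of the Rps18-ps4 difference was not tested.

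Other genes of translation were grouped by function. The 41 elongation and initiation factors held 972, 1119, 1068 and 1083 counts, with log2 ratios of -0.02 (-0.15 to 0.11) for dC10mut and -0.06 (-0.19 to 0.06) for tt. Their most counted genes were the initiation factor Eif5b (270, 259, 347 and 286, facing Rev1), Eef1a2, the elongation factor of muscle and nerve (190, 225, 149 and 178), and Eef2 (119, 120, 99 and 152). Of the 21 factors with at least 10 counts in the dC10mut pair, the 2-fold rule took 1 as higher and 2 as lower. Over all genes at that level it took 13.1% in either direction. The higher factor was Eif1, which helps choose the start codon (13 and 34 counts). The lower ones were Eif4b (50 and 25) and Eif3l (21 and 5). Eif4b and Eif3l were also lower in control than in NTG by the rule (28 and 8 counts in control), so NTG held the highest count of each. That is 2 of 20 factors, beside 8.41% of all genes at that level. In tt 0 of 20 factors were higher and 1 was lower, Eif3h (31 and 15), beside 12.8% of all genes at that level in either direction. The 45 ribosome biogenesis genes in the files had a summed log2 ratio of -0.27 (-0.40 to -0.14) in the dC10mut pair and 0.05 (-0.08 to 0.17) in the tt pair. Their sum was led by Bysl (438, 344, 395 and 310) and Tsr1 (265, 314, 219 and 412), which face Ccnd3 and Srr, and by the nucleolar protein Ncl (80, 76, 99 and 104).

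Regulators of ribosomal protein mRNAs were sparsely counted. Of 26 genes, 14 held a count in the dC10mut pair and 0 passed the rule, against 4.33% of all genes. In the tt pair 12 held a count and 1 passed, against 4.28% of all genes. It was Rictor, of mTORC2, with 0 counts in control and 6 in tt. Gabpa, the ETS factor of the CCGGAAG word, held 70, 87, 48 and 48 counts and faces Atp5j. Yy1 held 14, 15, 15 and 12, and Lamtor1, of the lysosomal anchor of mTORC1, 8, 19, 10 and 5.

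Mitochondrial ribosomal proteins, which serve the ribosomes inside mitochondria, had the same signs of the median. Their median log2 ratio was 0.41 in dC10mut against NTG (35 genes with at least 10 counts, 7 higher and 2 lower by the rule). In tt against control it was -0.53 (32 genes, 0 higher and 2 lower). Over all genes at that level the rule took 13.1% and 12.8% in either direction. Their summed ratios were 0.03 and -0.06, since the sum is led by Mrps25 (417, 355, 388 and 520 counts, facing Nr2c2) and Mrps7 (129, 113, 123 and 114, facing Gga3 and Mif4gd). Mrpl48, the next in count, held 54, 91, 37 and 67 and faces Rab6a. Of the genes higher in dC10mut, Mrpl12, which faces Gm16755, held 29, 80, 40 and 43 counts, while Mrpl28 (8, 25, 14 and 10), Mrpl34 (3, 17, 13 and 12), Mrpl41 (3, 18, 6 and 5) and Mrps6 (1, 11, 3 and 0) have no opposite-strand exon. Mrpl14 (4, 17, 10 and 8) faces Tmem63b and Mrpl43 (4, 19, 8 and 4) faces Twnk. The 2 lower genes were Mrpl19 (41, 22, 43 and 29, facing Gcfc2) and Mrpl49 (19, 7, 16 and 17, facing Syvn1). In tt the lower genes were Mrpl13 (10, 12, 26 and 10, facing Mtbp) and Mrps18a (6, 7, 14 and 3). Of 59 with a count in control or NTG, 4 were higher in control by the rule and 0 were lower, beside 1.4% and 1.69% of all genes. These were Mrpl13, Mrpl34, Mrpl45 (7, 16, 20 and 10) and Mrpl15 (0, 5, 9 and 5).

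The ribosomal protein sum was 3853 CPM (NTG), 4886 (dC10mut), 4283 (control) and 3739 (tt). The 7 macrophage markers, of which 5 held counts and Adgre1 and Cd163 were at 0, summed to 93.5, 246, 231 and 77.9 CPM. That is the same order of libraries, a match seen after the values. The cardiomyocyte, endothelial, fibroblast and smooth muscle sums did not share it. Before scaling, NTG and tt both held 15 macrophage counts. Lyz2 held 6, 28, 28 and 5 of the macrophage counts, and C1qb 1, 6, 5 and 5. The 7 endothelial markers, of which Pecam1 and Egfl7 were at 0, summed to 1440, 1271, 1528 and 732 CPM, lowest in tt. The 7 fibroblast markers summed to 312, 214, 385 and 203 CPM with Postn at 0, and the 7 smooth muscle and pericyte markers to 617, 908, 852 and 670 CPM with 4 of them at 0. Lymphocyte markers held at most 2 counts in a library. The part of these cells, of the heart muscle markers and of the Xist locus in the ribosomal protein differences was not tested.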

How the data were processed

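The authors deposited unnormalized whole-number counts for each RefSeq transcript in 4 libraries, 1 per group. STAR, HTSeq and mm10 are named per the submitters' processing notes; versions, counting mode and strand setting are not given in the sources used here. Per the labels' protocols, poly(A) RNA of whole hearts was made into stranded libraries. Each file lists 41449 transcripts, of which 41252 matched a RefSeq symbol; counts were summed per symbol, and the 197 others were kept as single genes. Exons, lengths and positions came from GENCODE M21 (GRCm38); promoters came from RefSeq (GRCm38.p6).

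Counts were scaled with TMM factors (0.940, 0.999, 1.03 and 1.03 for NTG, dC10mut, control and tt; edgeR 4.0.16, R 4.3.3). Log2 ratios used a prior count of 0.5, and 95% intervals were exact Clopper-Pearson conditional binomial intervals, which cover no error but that of counting (reads copied by PCR are not independent). With 1 library per group, no p-value was given within pairs. The common difference used edgeR's quasi-likelihood test (genes reaching 1 CPM in 2 or more libraries, Benjamini-Hochberg adjustment over all of them), with DESeq2 1.42.0 as an alternative. The pairs come from the study's design and form the block.

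Named are genes with at least 20 counts in a library or past the 2-fold rule, and pseudogenes with at least 20 counts. The stalk genes, Rpsa, Rpl3 and paralogs are also named. Of each list, the 3 most counted genes and those past the rule with at least 10 counts are named. Some genes that this takes are not reported here. The genes and lists were chosen with earlier results of these data known.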

Additional observations from a re-analysis of the deposited data

Results flagged for a closer look

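The summed counts of ribosomal protein genes moved in opposite directions in the pairs, with a log2 ratio of 0.34 for dC10mut against NTG and -0.20 for tt against control. Each is 1 library against 1, and the difference between the pairs was not tested. Other genes of similar length without an opposite-strand exon had median log2 ratios of the same signs, 0.41 and -0.24. Rps18-ps4, which the symbol rule leaves out, held 814 counts in dC10mut against 1 in the NTG library of the same strain label, a signal in data outside the ribosomal protein comparisons, and its source was not tested.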

How the results depend on the processing

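Under each alternative tried the medians and the summed ratios kept their sign in all 3 comparisons. Their size moved by over 1.5 times in some. For control against NTG, the summed log2 ratio of 0.15 became 0.28 on library totals and 0.09 without transcripts that have an opposite-strand exon, and its interval excluded equality on library totals, on DESeq2 size factors, without Rpl4 and without Rplp0 and Rps9. Its median of 0.29 became 0.13 over genes with any count. For tt against control, the median of -0.16 became -0.31 without transcripts that have an opposite-strand exon. The number of ribosomal protein genes past the 2-fold rule in dC10mut went from 3 to 0 without transcripts that have an opposite-strand exon, where Rplp0 and Rps9 fell just under 2-fold. In tt it went from 1 to 2 at 1.5-fold, which adds Rps25, and to 0 with at least 10 counts, where fewer genes are looked at. The common difference of the mutant libraries, with 13 genes called, gave 0 with DESeq2 and the pair as a block and 1 without the block; the cause was not tested. Without Rplp0 and Rps9, an alternative chosen after seeing the data, the summed log2 ratios were 0.26 and -0.27. Leaving out a replicate is not possible with 1 library per group. The depth of about 1 count per 5 CPM limits every gene under 10 counts.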
